A study of Homo sapiens with 12 samples.

Results

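The aldehyde dehydrogenase family was described through 10 genes, chosen by symbol from the 20030 rows of an mRNA-seq table of acute myeloid leukemia (AML) cells. The 10 genes were ALDH1A1, ALDH1B1, ALDH2, ALDH3A1, ALDH3A2, ALDH3B1, ALDH7A1, ALDH9A1, ALDH16A1 and ALDH18A1. MOLM-13 and THP-1 are human AML cell lines with a rearranged MLL gene (MLLr). MOLM-13 carries an internal tandem duplication of FLT3 (FLT3/ITD) and THP-1 has wild-type FLT3. Cells were incubated for 48 h with Jiyuan oridonin A (JOA), a diterpenoid isolated from Isodon rubescens, at 0.5 µM in MOLM-13 and 2 µM in THP-1, and the control cells of each line received DMSO alone. The time is that of the sample labels and of the study's sequencing methods, and a figure legend of the study gives a longer one. Each of the 4 groups held 3 libraries, 12 in all, and the labels do not tie the libraries of a group to separate cultures. The study's methods speak in general of repeated experiments, and the legend of its sequencing figure speaks of 2 independent experiments. Neither says how the 3 libraries of a group relate to them. The p-values therefore measured the spread between these libraries, which may be technical. Each line is 1 leukemia kept in culture, and cell line and dose changed together, so a difference in response between the lines cannot be told apart from a difference in dose.

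Aldehyde dehydrogenases oxidise aldehydes to carboxylic acids with NAD or NADP as electron acceptor. They clear acetaldehyde and the reactive aldehydes left by lipid peroxidation, and some make retinoic acid from retinal, a step of interest in myeloid cells because retinoic acid drives the differentiation of some leukemias. Other members act in the metabolism of lysine, carnitine and proline.

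In the RefSeq annotation of GRCh38.p14, ALDH1A1 spans chr9:72900671-72953053 and ALDH1B1 lies on the same chromosome at chr9:38392702-38398661. ALDH2 spans chr12:111766933-111817532. ALDH3A1 (chr17:19737984-19748298) and ALDH3A2 (chr17:19648136-19677596) are neighbours, 60.4 kb apart with 1 protein-coding gene between them. ALDH3B1 is at chr11:68008547-68029276, ALDH7A1 at chr5:126541841-126595219 and ALDH9A1 at chr1:165662216-165698562. ALDH16A1 is at chr19:49453225-49471050 and ALDH18A1 at chr10:95605941-95656711. Values are FPKM, in which fragments are scaled to the length of a gene's exons and to all mapped fragments of the library, so levels can be compared between genes.

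The libraries matched their labels as myeloid cells. The 8 myeloid marker genes were all tested in both lines, led by LYZ, and HBB, an erythroid gene, was listed at 0 in every library. The T cell gene CD3D was an exception, at 1.53 to 3.79 FPKM in MOLM-13 control cells and 2.01 to 2.25 FPKM after JOA, and it was listed at 0 in THP-1. Within a line, the libraries correlated with r of 0.991 to 0.997 in MOLM-13 and 0.988 to 0.995 in THP-1 on the log2(FPKM + 0.1) scale across genes, which are not independent replicates. Depth relative to the first control library ranged from 0.892 to 1.00 in MOLM-13 and from 0.927 to 1.07 in THP-1, read from the steps between low values, while total depth is unknown.

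ALDH9A1, ALDH18A1 and ALDH1B1 were among the 4 most abundant members in the control cells of both lines. In MOLM-13 control cells the order ran ALDH9A1, ALDH16A1, ALDH18A1, ALDH1B1, ALDH3B1, ALDH3A2, ALDH2, ALDH1A1, ALDH3A1 and ALDH7A1, and of the neighbours in that order the ranges of ALDH16A1 and ALDH18A1, and of ALDH1A1 and ALDH3A1, overlapped. In THP-1 control cells ALDH2 came first, followed by ALDH9A1, ALDH18A1, ALDH1B1, ALDH16A1, ALDH3A2, ALDH3B1, ALDH1A1, ALDH7A1 and ALDH3A1. There the ranges of ALDH9A1 and ALDH18A1, of ALDH16A1, ALDH3A2 and ALDH3B1, and of ALDH1A1 and ALDH7A1 overlapped. After JOA, ALDH9A1 stood first in both lines, and in THP-1 its range overlapped that of ALDH2.

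**Figure D1:**
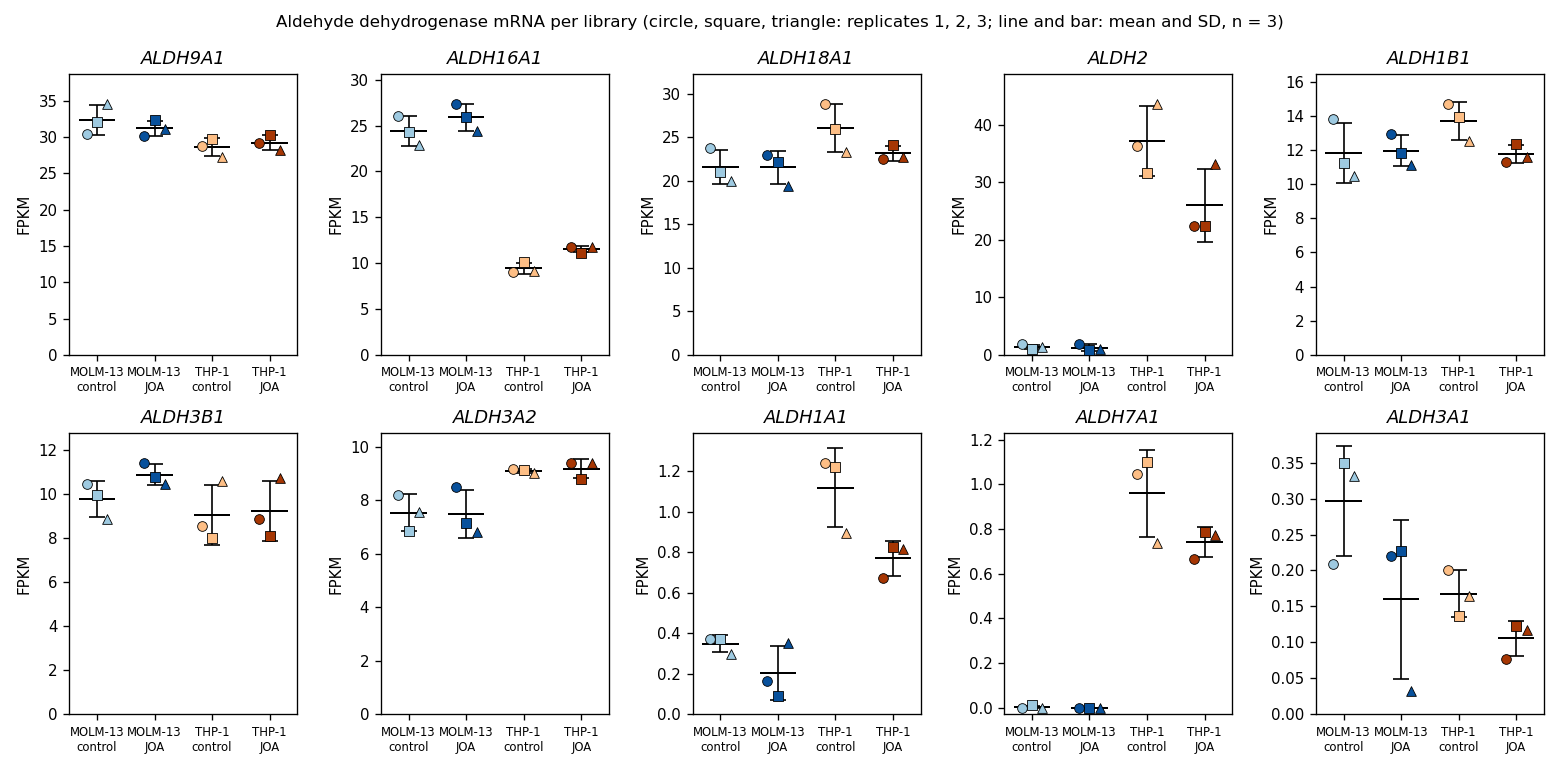
FPKM of each member in the 12 libraries, 1 panel per gene with its own linear axis, points for single libraries (circle, square and triangle for replicates 1, 2 and 3), and lines and bars for the mean and SD (n = 3). ALDH2 lies between 31.7 and 43.7 FPKM in THP-1 control cells and between 1.09 and 1.81 FPKM in MOLM-13 control cells, while ALDH9A1 lies between 27.3 and 34.6 FPKM in all 12 libraries.

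ALDH9A1, which oxidises 4-trimethylaminobutyraldehyde on the way to carnitine, varied little, at 32.4 ± 2.10 FPKM (SD, n = 3) in MOLM-13 control cells and 28.6 ± 1.24 FPKM in THP-1 control cells. ALDH18A1, which makes the proline precursor pyrroline-5-carboxylate from glutamate, stood at 21.6 ± 1.98 and 26.1 ± 2.78 FPKM. ALDH1B1, a mitochondrial enzyme close to ALDH2 in sequence, stood at 11.8 ± 1.74 and 13.7 ± 1.11 FPKM. Of these 3 genes, the 2 groups of control libraries were separate only for ALDH9A1.

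The lipid aldehyde enzymes were of middle or low abundance. ALDH3A2, the fatty aldehyde dehydrogenase of the endoplasmic reticulum, was at 7.53 ± 0.677 FPKM in MOLM-13 control cells and 9.08 ± 0.0798 FPKM in THP-1 control cells. ALDH3B1, a membrane-bound enzyme for lipid-derived aldehydes, was at 9.76 ± 0.818 and 9.05 ± 1.38 FPKM. ALDH3A1, the cytosolic enzyme known from the cornea and for aromatic and medium-chain aldehydes, was at 0.296 ± 0.0765 and 0.168 ± 0.0327 FPKM, so it was scarce in both lines although its neighbour ALDH3A2 was not.

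Summed over the 10 members, mRNA came to 115.1, 107.3 and 106.2 FPKM in the MOLM-13 control libraries, a mean of 109.5 ± 4.85 FPKM (SD, n = 3), and to a mean of 135.5 ± 3.78 FPKM in THP-1 control cells. The sum was 1.24 times as high in THP-1 (two-sided exact permutation test over libraries, p = 0.1, the smallest that 3 against 3 can give). ALDH2 made up 1.02 to 1.57% of the sum in MOLM-13 control cells and 24.2 to 31.8% in THP-1 control cells. ALDH16A1 made up 21.5 to 22.7% and 6.55 to 7.72%. In bulk libraries such as these, fewer cells expressing a gene and less RNA per cell cannot be told apart.

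**Figure D2:**
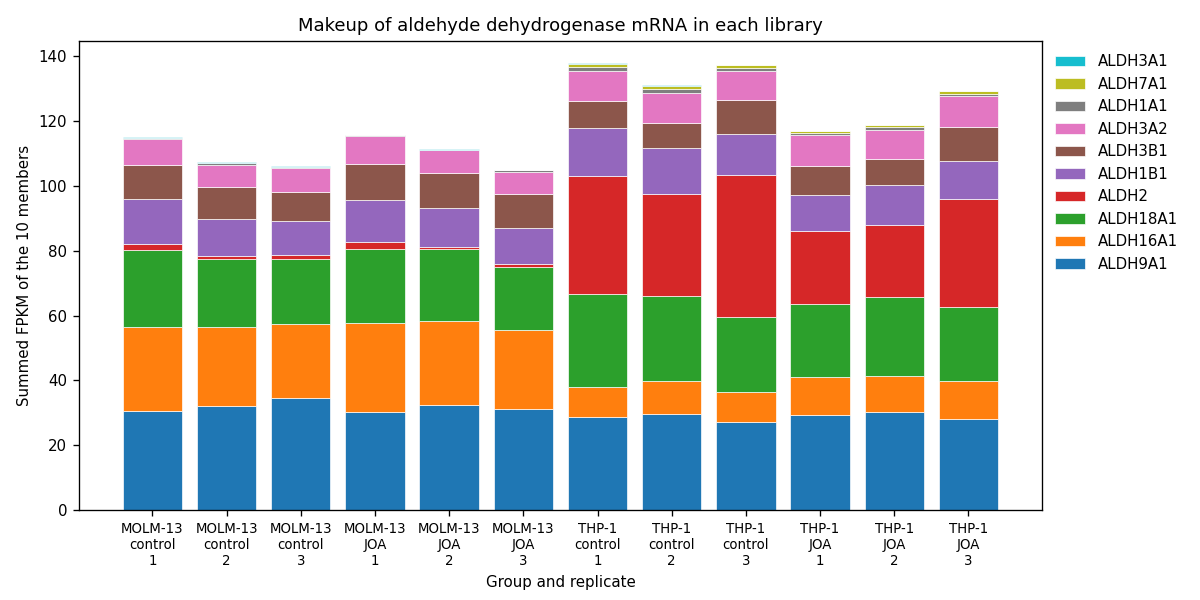
Summed FPKM of the 10 members in each of the 12 libraries, as stacked bars from 0 with 1 colour per gene. The ALDH2 segment holds 1.02 to 1.57% of the bar in MOLM-13 control libraries, 24.2 to 31.8% in THP-1 control libraries and 18.8 to 25.7% in THP-1 JOA libraries.

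The control libraries of both lines were then compared, to show which members differ between the lines before JOA. ALDH2, ALDH1A1 and ALDH7A1 were higher in THP-1 and ALDH16A1 was lower, on limma's adjusted p under 0.05 with an absolute log2 difference of at least 0.58 on the log2(FPKM + 0.1) scale. These 4 of 10 members called stood against 44.0% of the 12635 genes tested. The groups did not overlap for 7 of 10 members, against 74.8% of all genes, and on the adjusted p alone 8 of 10 members passed, against 71.2%. ALDH7A1 passed the filter on low values only through THP-1 and so had to differ, and without it these counts were 3, 6 and 7 of 9 members, all near the background shares. The members' median log2 difference was 0.24, beside 0.06 over all genes.

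ALDH2, the mitochondrial enzyme that clears acetaldehyde, stood at 1.81, 1.09 and 1.28 FPKM in MOLM-13 control cells and 36.3, 31.7 and 43.7 FPKM in THP-1 control cells. The groups lay far apart, with THP-1 26.7-fold higher on the means (log2 difference 4.66, SE 0.18, limma adjusted p = 2.28e-07). ALDH16A1, a member with a duplicated dehydrogenase domain whose mammalian form lacks the catalytic cysteine, went the other way, from 26.0, 24.3 and 22.8 FPKM in MOLM-13 to 9.03, 10.1 and 9.10 FPKM in THP-1. MOLM-13 was 2.59-fold higher on the means (log2 difference -1.36 for THP-1 minus MOLM-13, SE 0.08, limma adjusted p = 1.30e-06).

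ALDH1A1, a cytosolic retinal dehydrogenase and a marker of stem-like cells in many tissues, was low in both lines, at 0.374, 0.372 and 0.299 FPKM in MOLM-13 and 1.24, 1.22 and 0.895 FPKM in THP-1. It was 3.21-fold higher in THP-1 on the means (log2 difference 1.43, SE 0.16, limma adjusted p = 8.92e-05). ALDH7A1, the α-aminoadipic semialdehyde dehydrogenase of lysine breakdown, was listed at 0 in 5 of the 6 MOLM-13 libraries and at 0.00912 FPKM in the other, against 1.04, 1.10 and 0.738 FPKM in THP-1 control cells. No fold is given for it.

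RefSeq's promoter table for GRCh38.p14 held entries for 7 of the 10 members, in 9 windows of 300 bases that run from 250 bases before to 50 after an annotated start. ALDH1A1 and ALDH7A1, the 2 members with an entry that were called between the lines, are shown as windows that differ in base composition. ALDH7A1 passed the filter only through THP-1, so nothing is read from its call. The ALDH1A1 window (chr9:72953004-72953303, minus strand) has a GC content of 40.3% and 7 CpG dinucleotides, and the ALDH7A1 window (chr5:126595170-126595469, minus strand) has 64.3% and 17, beside medians of 58.7% and 14 over all 35114 promoters. CpG dinucleotides are in capitals in both, read 5′ to 3′.
ALDH1A1: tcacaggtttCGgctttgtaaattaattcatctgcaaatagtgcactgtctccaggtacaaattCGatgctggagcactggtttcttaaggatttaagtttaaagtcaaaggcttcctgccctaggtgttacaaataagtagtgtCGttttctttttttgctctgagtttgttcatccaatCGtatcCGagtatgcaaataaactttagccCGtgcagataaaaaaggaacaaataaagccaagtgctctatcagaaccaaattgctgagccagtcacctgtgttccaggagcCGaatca
ALDH7A1: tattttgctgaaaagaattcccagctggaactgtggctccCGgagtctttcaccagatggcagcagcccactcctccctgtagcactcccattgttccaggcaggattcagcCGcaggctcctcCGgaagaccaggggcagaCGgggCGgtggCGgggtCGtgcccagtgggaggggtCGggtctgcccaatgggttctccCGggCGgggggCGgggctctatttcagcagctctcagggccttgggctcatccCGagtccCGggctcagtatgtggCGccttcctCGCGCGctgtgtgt
The antioxidant response element core TGACNNNGC, searched on both strands, was in 0 of the 9 windows and in 13.3% of all promoters. The xenobiotic response element core GCGTG was in 1 of the 9, the second ALDH3A2 window, which held 2 matches, and in 36.5% of all promoters. No match says only that these letters are not in these windows.

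Among the other members, smaller differences between the lines passed the adjusted p but not the fold threshold. THP-1 was higher for ALDH3A2 (log2 difference 0.27, SE 0.08, limma adjusted p = 0.0151) and for ALDH18A1 (0.27, SE 0.10, adjusted p = 0.0337). It was lower for ALDH9A1 (-0.18, SE 0.07, limma adjusted p = 0.0436) and for ALDH3A1 (-0.55, SE 0.20, adjusted p = 0.0374). ALDH1B1 (0.22, SE 0.11, limma adjusted p = 0.107) and ALDH3B1 (-0.12, SE 0.12, adjusted p = 0.391) passed neither. The ALDH3A1 difference was called without MOLM-13 control replicate 1 (-0.73), without THP-1 control replicate 1 (-0.64) or with a pseudocount of 0.01 (-0.77), and it was -0.15 with a pseudocount of 1. With the replicate number as a block its limma adjusted p was 0.0689.

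In THP-1 cells, 2 µM JOA moved no member past both thresholds, against 0.134% of 12712 genes tested (17 genes, 7 higher and 10 lower). The smallest adjusted p of any gene was 0.0394, and 4 of the 10 members and 2146 of all genes (16.9%) had an unadjusted p under 0.05 in limma. JOA and control libraries did not overlap for 4 of 10 members, ALDH16A1 with JOA higher and ALDH1A1, ALDH1B1 and ALDH3A1 with JOA lower, against 23.4% of all genes. The members' median log2 fold change was -0.19, beside 0.02 over all genes. Same-numbered control and JOA libraries deviated together in each line, so the replicate number was also fitted as a block. With the block and no fold threshold, a rule added after the data were seen, 2 of 10 members passed an adjusted p of 0.05, ALDH2 and ALDH16A1, against 8.06% of all genes.

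ALDH2 was lower with JOA in every THP-1 pair. It stood at 36.3, 31.7 and 43.7 FPKM in control and 22.4, 22.4 and 33.3 FPKM in JOA libraries. The third JOA library lay above the second control library, so the groups overlapped, but within the same-numbered pairs JOA was at 0.616, 0.706 and 0.762 of its control. The log2 fold change was -0.53, with SE 0.17 and limma adjusted p = 0.182 without the block, and SE 0.06 and adjusted p = 0.00804 with it. Its size stayed under the fold threshold of 0.58 in both fits, and it went from -0.72 to -0.41 when single libraries were left out.

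ALDH16A1 was higher with JOA in every THP-1 pair, at 9.03, 10.1 and 9.10 FPKM in control and 11.8, 11.1 and 11.7 FPKM in JOA libraries. All 3 JOA libraries lay above all 3 control libraries, with ratios of 1.30, 1.10 and 1.29 within pairs. The log2 fold change was 0.29 (SE 0.06), with limma adjusted p = 0.0877 without the block and 0.0352 with it. With JOA it stood at 11.5 ± 0.358 FPKM (SD, n = 3) in THP-1 and 25.9 ± 1.48 FPKM in MOLM-13, so the ranges of the lines remained apart.

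The remaining THP-1 values had adjusted p-values above 0.05 with and without the block. ALDH1A1 stood at 1.24, 1.22 and 0.895 FPKM in control and 0.671, 0.826 and 0.815 FPKM in JOA libraries, a log2 fold change of -0.48 (SE 0.16, limma adjusted p = 0.189, and 0.0989 with the block). All 3 JOA libraries lay below all 3 control libraries, the closest being control replicate 3. ALDH1B1 stood at 14.7, 13.9 and 12.5 FPKM in control and 11.3, 12.3 and 11.6 FPKM in JOA libraries (-0.22, SE 0.07, limma adjusted p = 0.185, and 0.0717 with the block). Here too the groups were separate, by a narrow gap between 12.3 and 12.5 FPKM.

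ALDH3A1 in THP-1 was at 0.201, 0.136 and 0.165 FPKM in control and 0.0775, 0.123 and 0.117 FPKM in JOA libraries. The groups did not overlap, yet the estimate was loose, with a log2 fold change of -0.38 (SE 0.21, limma adjusted p = 0.407, and 0.361 with the block). ALDH18A1 went from 28.9, 26.0 and 23.3 FPKM to 22.6, 24.2 and 22.8 FPKM (-0.16, SE 0.08, limma adjusted p = 0.344, and 0.166 with the block), with overlapping groups. ALDH7A1 went from 1.04, 1.10 and 0.738 FPKM to 0.667, 0.787 and 0.772 FPKM (-0.32, SE 0.17, limma adjusted p = 0.377, and 0.240 with the block). The pair numbered 3 went up and the other pairs went down.

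ALDH3A2, ALDH3B1 and ALDH9A1 had the log2 fold changes nearest 0 in THP-1, at 0.01 (95% interval -0.11 to 0.14), 0.03 (-0.27 to 0.33) and 0.03 (-0.09 to 0.15). The intervals of these 3 genes lay within the fold threshold on either side. Counted by pair, 5 of 10 members were lower with JOA in 3 of 3 pairs (ALDH1A1, ALDH1B1, ALDH2, ALDH3A1 and ALDH18A1) against 19.4% of genes tested, and 3 were higher in 3 of 3 pairs (ALDH3B1, ALDH9A1 and ALDH16A1) against 29.3%. The summed FPKM was 121.8 ± 6.67 with JOA, 0.899 of control (two-sided exact permutation test, p = 0.1, the smallest possible), and the ALDH2 share of it was 18.8 to 25.7%.

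**Figure D3:**
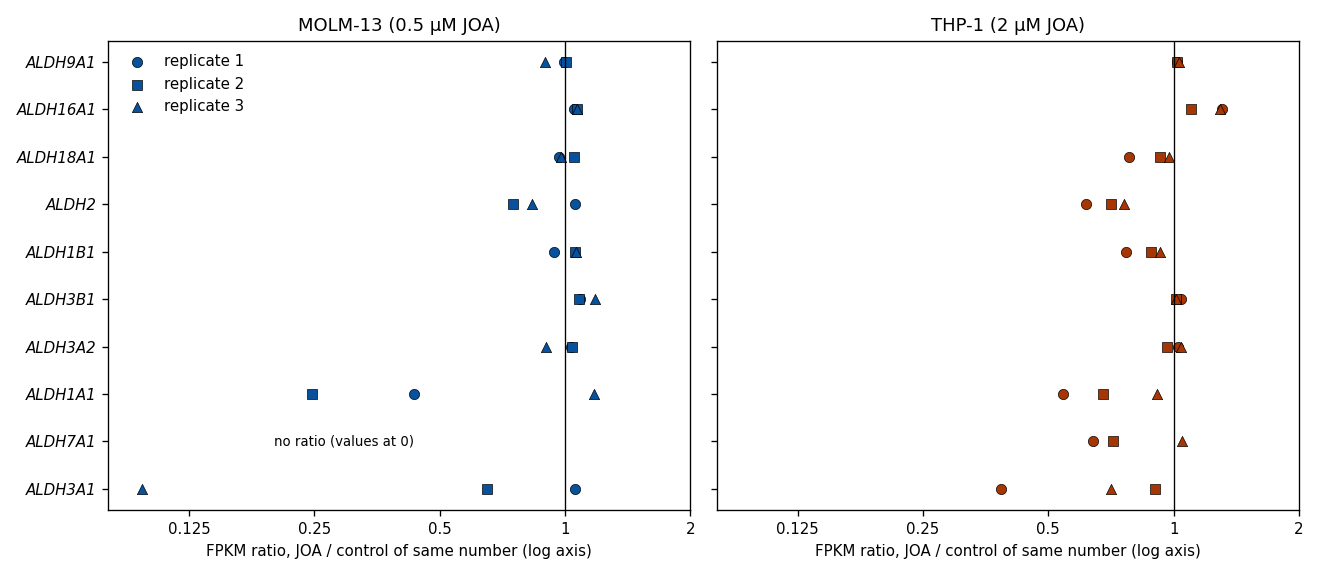
Ratio of FPKM with JOA to FPKM in the control library of the same number, on a log axis, for each member in MOLM-13 (left) and THP-1 (right), with circle, square and triangle for replicates 1, 2 and 3. In THP-1 the 3 ALDH2 ratios lie between 0.616 and 0.762 and the 3 ALDH16A1 ratios between 1.10 and 1.30, while in MOLM-13 the 3 ALDH3A1 ratios run from 0.0966 to 1.06.

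In MOLM-13 cells, 0.5 µM JOA moved no member past the thresholds in limma, with or without the block, and no other gene passed either (0% of 11693 genes called). The study called genes in this line with DESeq and reported ALDH3A1 among them as lower. It also reported changed ALDH3A1 mRNA and protein by RT-PCR and Western blotting. Those measurements, made after an incubation longer than 48 h by the legend of their figure, were not examined here. The smallest adjusted p of any gene was 0.406 without the block, and 481 genes (4.11%), among them none of the 9 members tested, had an unadjusted p under 0.05. JOA and control libraries did not overlap for 0 of 9 members, against 9.65% of all genes. The members' median log2 fold change was -0.01, as against 0.01 over all genes. ALDH7A1 did not pass the filter in this line.

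ALDH3A1 and ALDH1A1, the scarce members, had the largest fold changes in MOLM-13 and the widest errors. ALDH3A1 was at 0.209, 0.349 and 0.331 FPKM in control and 0.221, 0.227 and 0.0320 FPKM in JOA libraries. The first JOA library lay above its own control, and the third was the lowest of the 12 libraries for this gene. The log2 fold change was -0.70 (SE 0.37, 95% interval -1.56 to 0.15, limma adjusted p = 1.00, and 0.500 with the block), and it was -0.27 without JOA replicate 3. ALDH1A1 was at 0.374, 0.372 and 0.299 FPKM in control and 0.163, 0.0920 and 0.352 FPKM in JOA libraries. The pairs numbered 1 and 2 went down and the pair numbered 3 went up, giving a log2 fold change of -0.66 (SE 0.31, 95% interval -1.37 to 0.05, limma adjusted p = 1.00, and 0.468 with the block) that ran from -0.99 without JOA replicate 3 to -0.38 without JOA replicate 2.

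ALDH3B1 and ALDH16A1 were higher with JOA in 3 of 3 MOLM-13 pairs, a direction shown by 18.5% of genes tested. ALDH3B1 was at 10.5, 9.96 and 8.86 FPKM in control and 11.4, 10.8 and 10.4 FPKM in JOA libraries (log2 fold change 0.16, SE 0.08, limma adjusted p = 1.00, and 0.386 with the block). The groups overlapped only just, since the lowest JOA and the highest control library were both near 10.5 FPKM. ALDH16A1 was at 26.0, 24.3 and 22.8 FPKM in control and 27.4, 26.0 and 24.4 FPKM in JOA libraries, with ratios of 1.05, 1.07 and 1.07 within pairs (0.09, SE 0.07, limma adjusted p = 1.00, and 0.496 with the block). No member was lower in 3 of 3 pairs, against 15.7% of genes.

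ALDH2 in MOLM-13 was at 1.81, 1.09 and 1.28 FPKM in control and 1.91, 0.819 and 1.06 FPKM in JOA libraries, a log2 fold change of -0.18 with a 95% interval of -0.84 to 0.48. That interval reaches past the -0.53 seen in THP-1, so a change of that size in MOLM-13 was not excluded. ALDH18A1, ALDH1B1, ALDH3A2 and ALDH9A1 had log2 fold changes between -0.05 and 0.02, with 95% intervals that together ran from -0.25 to 0.27. The summed FPKM was 110.6 ± 5.53 with JOA, 1.01 times control (two-sided exact permutation test, p = 0.9).

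**Figure D4:**
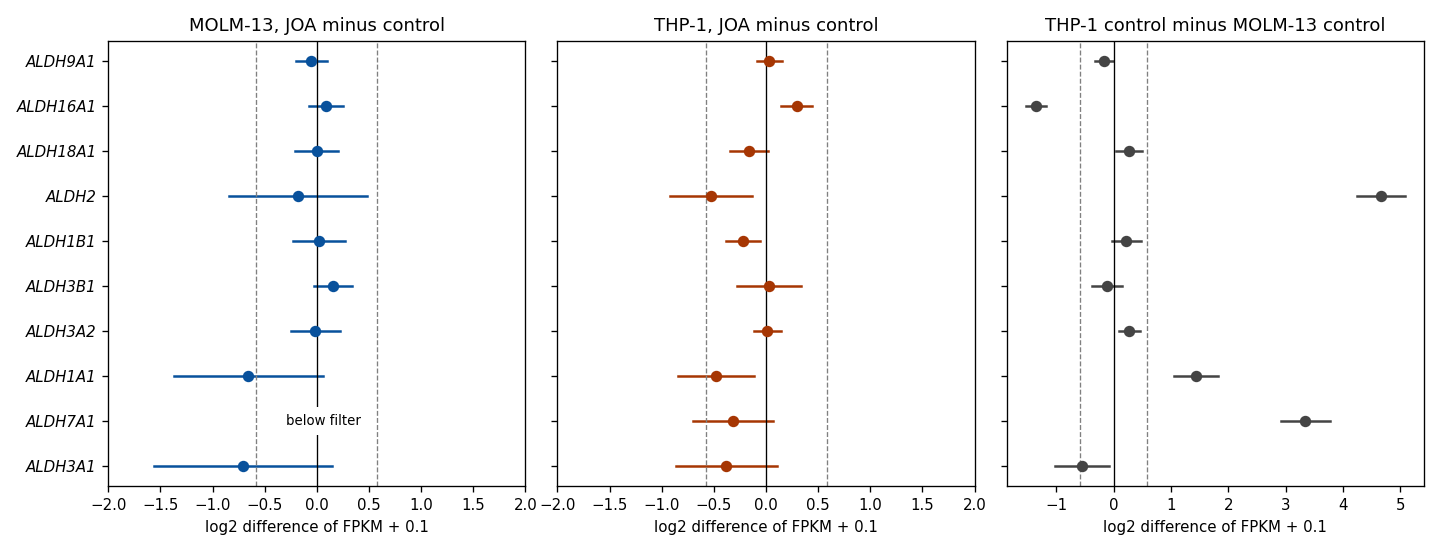
Log2 difference of FPKM + 0.1 from limma for each member, as points with 95% intervals, for JOA minus control in MOLM-13 (left) and THP-1 (middle) and for THP-1 control minus MOLM-13 control (right, wider axis), with dashed lines at the fold threshold of 0.58 on either side. The intervals of ALDH2 (4.24 to 5.08) and ALDH16A1 (-1.54 to -1.19) lie beyond the threshold between the lines. Those of ALDH1A1 and ALDH7A1 do too, and no JOA interval does.

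The difference between the lines' responses was tested as an interaction over all 12 libraries, with line and dose changing together. No member passed (0% of 12626 genes called, 0 of 10 members), and 914 genes (7.24%) had an unadjusted p under 0.05 in limma, none of them a member. Adjusted p-values of the members ran from 0.693 for ALDH16A1 (interaction 0.21, SE 0.09) to 0.980 for ALDH3A2 (0.03, SE 0.12). For ALDH2 the interaction was -0.35 (SE 0.38, 95% interval -1.17 to 0.48, limma adjusted p = 0.914), and for ALDH3A1 it was 0.32 (SE 0.43, 95% interval -0.62 to 1.27, adjusted p = 0.941). The comparison between the lines shares its control libraries with the JOA comparisons, so they are not independent of each other.

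Of the 9 further ALDH genes, ALDH1A3 stood out between the lines. This retinal dehydrogenase was at 5.11 ± 0.770 FPKM (SD, n = 3) in MOLM-13 control cells and 0.404 ± 0.0432 FPKM in THP-1 control cells, 12.6-fold higher in MOLM-13 and so the reverse of ALDH1A1 (log2 difference -3.36, SE 0.14, limma adjusted p = 2.96e-07). ALDH4A1, of proline breakdown, ALDH5A1, of GABA breakdown, and ALDH1L2, of mitochondrial folate metabolism, were also lower in THP-1, which made 4 of the 5 tested, against 44.0% of all genes. ALDH6A1, of valine breakdown, was not called (-0.35, SE 0.15). ALDH8A1 was at 0.0159 to 0.142 FPKM over the 12 libraries, ALDH1A2 and ALDH1L1 were at or near 0 and ALDH3B2 was listed at 0 in every library. None of these genes was called with JOA in either line, with or without the block.

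The genes around the members were read as 5 lists. In the retinoid pathway, 12 of 24 genes were tested in MOLM-13 and 15 in THP-1, and none was called with JOA without the block. With the block 1 of the 15 was called in THP-1, against 1.27% of all genes. CRABP1, a cytosolic retinoic acid binding protein, fell with the block and was at 15.7 ± 3.58 FPKM in control and 9.88 ± 2.55 FPKM in JOA libraries (log2 fold change -0.67, limma adjusted p = 0.198, and 0.00320 with the block). RBP4, which carries retinol in plasma, was at 1.69 ± 0.107 and 1.25 ± 0.152 FPKM (-0.42, limma adjusted p = 0.143, and 0.04996 with the block). Both genes passed the filter on low values only through THP-1 in the comparison of the control cells, so they had to differ there. CRABP1 was listed at 0 in all 3 MOLM-13 control libraries. Between the lines 5 genes of the list were higher in THP-1 and 4 lower, of 15 tested, and without CRABP1, RBP4 and CYP26B1, which passed the filter only through THP-1, 2 were higher and 4 lower of 12, against 44.0% of all genes called in either direction.

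Of 8 alcohol dehydrogenase genes, which supply aldehydes to the members, ADH5 alone was tested. This formaldehyde-clearing enzyme was at 46.3 ± 3.46 FPKM in THP-1 control cells and 50.3 ± 3.26 FPKM with JOA (log2 fold change 0.12, limma adjusted p = 0.432). In proline metabolism, 6 of 8 genes in the table were tested and none was called with JOA. PYCR1, which completes the proline synthesis begun by ALDH18A1, was at 15.8 ± 3.09 FPKM in THP-1 control cells and 12.9 ± 1.23 FPKM with JOA (-0.28, limma adjusted p = 0.364, and 0.0501 with the block). Between the lines PYCR1 and PYCR3 were called lower in THP-1, of 6 tested, against 44.0% of all genes called in either direction.

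In the list of lysine, betaine, carnitine and lipid aldehyde steps, 9 of 18 genes were tested in MOLM-13 and 11 in THP-1, with none called for JOA in either. PIPOX, a peroxisomal oxidase of pipecolic acid upstream of ALDH7A1, was at 2.04 ± 0.220 FPKM in THP-1 control cells and 1.42 ± 0.221 FPKM with JOA (log2 fold change -0.50, limma adjusted p = 0.132, and 0.0268 with the block). SAT1, a polyamine acetyltransferase, had positive values in both lines, 0.33 in MOLM-13 (limma adjusted p = 1.00) and 0.35 in THP-1 (adjusted p = 0.218). Between the lines 2 genes of the list were higher and 4 lower in THP-1, of 10 tested. Without AOC2, which passed the filter only through THP-1, these were 1 and 4 of 9. Over all genes, 44.0% were called in either direction.

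The aryl hydrocarbon receptor list was included because ALDH3A1 is a known target of that receptor in other tissues. None of 6 genes tested in MOLM-13 or 7 in THP-1 was called. NQO1, a quinone reductase, was at 24.3 ± 2.10 FPKM in THP-1 control cells and 32.6 ± 0.976 FPKM with JOA, a log2 fold change of 0.42 (limma adjusted p = 0.0543, and 0.00792 with the block) that stayed under the fold threshold. CYP1A1, the classic receptor target, was at 0.0756 ± 0.0533 and 0.202 ± 0.0409 FPKM (0.82, limma adjusted p = 0.190, and 0.131 with the block). All 3 of its JOA libraries lay above all 3 control libraries, and 23.4% of all genes had groups that did not overlap. CYP1A1 passed the filter of 0.1 FPKM only through its JOA libraries, which favours such a separation, so nothing is read from it. The part of the receptor in the ALDH3A1 values was not tested.

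Of the 8 myeloid markers, 2 were called with JOA in THP-1 with the block, against 1.27% of all genes, and none without it. ITGAM, the CD11b gene, rose with the block, from 3.94 ± 0.982 to 6.39 ± 0.419 FPKM (log2 fold change 0.71, limma adjusted p = 0.103, and 0.0348 with the block). MPO, myeloperoxidase of granulocyte precursors, fell from 20.2 ± 7.61 to 13.1 ± 5.40 FPKM (-0.64, adjusted p = 0.399, and 0.00659 with the block). None of the 8 was called in MOLM-13 or at 0 in any library, and their summed level was 969.4 to 1575 FPKM in THP-1 control and 1059 to 1332 FPKM in THP-1 JOA libraries. Of the 10 markers of other cell types, 3 were tested in MOLM-13 and 2 in THP-1, and none was called with JOA. Their summed level was 0.258 to 1.41 FPKM in THP-1 control and 0.292 to 0.512 FPKM in THP-1 JOA libraries, with CD3D and HBB listed at 0 in both. The largest change among them was in the fibroblast gene COL1A1 in THP-1, at 0.208 to 0.998 FPKM in control and 0.0983 to 0.352 FPKM in JOA libraries (-0.86, limma adjusted p = 0.464, and 0.0512 with the block). The part of these markers in the ALDH2 and ALDH16A1 values was not tested.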

How the data were processed

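Gene expression was measured by mRNA-seq (TruSeq Stranded mRNA kit, paired-end reads) in 12 libraries of MOLM-13 and THP-1 cells. The authors deposited FPKM per gene and library. The submitters' processing notes name Trimmomatic, HISAT2, Cufflinks, HTSeq and hg38, and the annotation is not given in the sources used here. The sample labels gave the groups and the replicate numbers.

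Genes whose FPKM averaged 0.1 or more in the fitted libraries were tested on log2(FPKM + 0.1) with limma 3.58.1 (R 4.3.3, lmFit and eBayes with trend). Fold changes on this scale understate those of low genes. A gene was called when its adjusted p (Benjamini-Hochberg, over all genes) was under 0.05 and its log2 fold change reached 0.58 in size, and on the adjusted p alone in the interaction. DESeq, which the study used, needs counts and was not run. Same-numbered control and JOA libraries correlated in their deviations from the group means (0.580, 0.407 and 0.448 in MOLM-13, 0.466, 0.297 and 0.541 in THP-1), so a replicate block was fitted as an alternative. The fits without the block were tested on simulated data, with changes above the fold threshold in genes of at least 1 FPKM. Smaller changes, scarcer genes and libraries paired by number were not covered by that test. Coordinates and promoters came from RefSeq (GRCh38.p14). A protein comparison was planned and not made.

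All 10 members are named, with the further ALDH genes, and from each list those genes called in a JOA comparison with or without the block and the pair of tested genes with the largest change (1 of these genes is not reported here). The members and lists were chosen with earlier results of these data known.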

Additional observations from a re-analysis of the deposited data

How the results depend on the processing

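Each comparison was repeated with other pseudocounts (0.01 and 1), filters, scalings, variance models, call rules, a replicate block, 1 fit on all samples, and without each library. Of 427 member values under alternatives other than leaving out a library, 414 kept direction and call, 3 reversed and 10 were newly called, and of 294 without a library 271 kept both, 21 reversed and 2 were newly called. No called member lost its call where it was still tested.

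The values that reversed were smaller in size than their standard errors. They were ALDH3A2 in THP-1 (-0.013) and in the interaction (-0.0023) with median-ratio size factors, and ALDH1A1 in the interaction with a pseudocount of 1 (-0.085). Without single libraries, MOLM-13 values ran from -0.50 to 0.063 for ALDH2, -0.11 to 0.050 for ALDH3A2, -0.057 to 0.069 for ALDH18A1 and -0.058 to 0.14 for ALDH1B1. THP-1 values ran from -0.082 to 0.15 for ALDH3B1, -0.0023 to 0.060 for ALDH9A1 and -0.0019 to 0.045 for ALDH3A2. The interaction ran from -0.036 to 0.12 for ALDH3A2, -0.10 to 0.52 for ALDH1A1 and -0.11 to 0.55 for ALDH3A1. The cause was not tested.

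Between the lines, 2 members were called with a mean FPKM of at least 1, since ALDH1A1 and ALDH7A1 were then not tested. There were 5 with a pseudocount of 0.01, which added ALDH3A1, and 4 to 5 without single libraries. On the adjusted p alone 8 were called, and 7 with the block and the adjusted p alone. Over all genes these settings called, in the same order, 3866, 5667, 5448 to 5718, 9000 (71.2%) and 9163 genes. With the block and the adjusted p alone, a rule chosen after seeing the data, 2 members passed in THP-1, against 8.06% of all genes. Between the lines, the block took ALDH3A1 (adjusted p = 0.0689) and ALDH9A1 (0.0560) past 0.05 and brought ALDH1B1 (0.0254) under it. With the fold threshold kept, the block changed no member's call in any comparison.

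The 17 genes called in THP-1 became 8 (pseudocount 1), 0 (any value above 0), 1 (no trend), 161 (block, 81 higher and 80 lower), 51 (1 fit), 38 (adjusted p alone), 241 (unadjusted p), 1024 (block, adjusted p alone) and 0 to 1 without single libraries. The 0 in MOLM-13 became 1 (any value above 0) and 56 (unadjusted p). The 5559 between the lines became 9000 (adjusted p alone) and 9163 (block, adjusted p alone). The 0 in the interaction became 1 (pseudocount 1), 3 (any value above 0), 1 (rescaled to an equal sum), 1 (median-ratio), 6 (block) and 914 (unadjusted p). With 3 libraries per group and unknown total depth, ALDH3A1 had the widest errors of the members tested with JOA in both lines. In THP-1 the error of ALDH2 was about as wide as those of ALDH1A1 and ALDH7A1, although ALDH2 was far more abundant. Same-numbered control libraries of the lines correlated weakly in their deviations from the group means (0.180, 0.0757 and 0.0874). Control libraries with unlike numbers ran from -0.121 to 0.0517.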
